A study of Homo sapiens with 18 samples.

Results

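The genes described here are 9 genes of thioredoxin, quinone, heme and iron metabolism: TXN, TXNRD1, TXNIP, PRDX1, SRXN1, NQO1, HMOX1, FTH1 and FTL. They were chosen by symbol, from the 62754 genes of the count matrix, with earlier results of these data known. Their counts below are therefore not independent evidence. All 9 were among the 15167 genes that passed the filter on low counts and were tested. RNA was sequenced from EA.hy926 cells, an endothelial line made by fusing human umbilical vein endothelial cells with the lung epithelial line A549. Mock cells received the transfection reagent without siRNA, siNT cells received non-targeting siRNA and siELMO1 cells received a pool of 3 siRNAs against ELMO1, a partner of the guanine nucleotide exchange factors that activate RAC1; siRNA was given at 10 nM. RNA was collected 48 h after transfection without poly(I:C) (0 h), or after 24 h with poly(I:C), a synthetic double-stranded RNA that activates Toll-like receptor 3, at 1 μg/ml. All cells had been kept in medium of low serum overnight before poly(I:C) was added. The 6 conditions had 3 libraries each, 18 in all, of 40374756 to 73850946 estimated counts.

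Thioredoxin reduces disulfide bonds in proteins and is itself recycled by thioredoxin reductase at the expense of NADPH, while TXNIP binds reduced thioredoxin and blocks it. Peroxiredoxins use thioredoxin to remove hydrogen peroxide, and sulfiredoxin restores peroxiredoxins that peroxide has overoxidized. NQO1 reduces quinones, heme oxygenase 1 opens the heme ring and frees its iron, and ferritin stores iron in a shell of heavy and light chains. Most of these genes are known targets of the transcription factor NRF2, which binds antioxidant response elements and is held in check by KEAP1. TXNIP is instead known as a target of MondoA (MLXIP) and its partner MLX.

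ELMO1 (ENSG00000155849.16, chromosome 7, 36852906 to 37449223) was measured first as the check of the knockdown. It stood at 3.04, 2.98 and 3.03 CPM (counts scaled to library size with TMM factors) in Mock and at 2.85, 2.66 and 3.32 CPM in siNT at 0 h. In siELMO1 it was at 0.299, 0.301 and 0.419 CPM before poly(I:C) and at 0.288, 0.155 and 0.359 CPM after 24 h of it, below every control library. All 10 endothelial markers (PECAM1, CDH5 and others) were expressed. Of 9 lung epithelial markers 4 passed the filter (EPCAM, KRT7, KRT8 and KRT18), and CDH1, SFTPC and NKX2-1 were at or below the limit that a count of 0 allows in every condition. The keratins carried the lung epithelial sum, which was 1516 to 1538 CPM in Mock, 1879 to 1911 CPM in siNT and 2100.0 to 2224 CPM in siELMO1 at 0 h, and 842 to 861, 1010.4 to 1056 and 1098 to 1314 CPM at 24 h. The summed level of the endothelial markers was higher in siELMO1 (2006 to 2108 CPM at 0 h) than in Mock (1306 to 1421 CPM) and siNT (1479 to 1561 CPM), and at 24 h it was 1990.4 to 2396 CPM in siELMO1, 1163 to 1433 CPM in Mock and 1423 to 1591 CPM in siNT. Mitochondrially encoded genes took 1.31% to 2.42% of the counts in 16 libraries, but 4.02% and 3.95% in siELMO1 replicates 2 and 3 at 0 h. The part of these levels in the results below was not tested, but leaving mitochondrially encoded genes out of the fit changed no call of a gene between siELMO1 and a control.

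The sequences upstream of the genes were searched for the core of the antioxidant response element. The reason was that 8 of the 9 genes were lower in siELMO1 than in each control at 0 h and 24 h. They did not share a direction in every comparison below. The core was written as TGACNNNGC and searched on both strands from 1000 bases before to 50 bases after the start of the transcript with the most counts (GRCh38, GENCODE starts). Of the 9 genes, 4 held 1 match each, against 35.2% of the 15153 windows of tested genes. The matches with 10 bases on either side are shown 5′ to 3′ on the strand that carries the core. The core is in capitals, to show which bases the matches share and where they differ.
NQO1: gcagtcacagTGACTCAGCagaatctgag
PRDX1: cccgccggaaTGACTCGGCgctttccctc
TXN: tgctccagctTGACACAGCggtttagtgc
TXNRD1: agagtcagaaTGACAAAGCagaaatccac
The NQO1 match (chr16:69726997-69727025, minus strand) began 455 bases before the start on the coding strand, and its core overlapped TGANTCA, the AP-1 site. The matches of PRDX1 (chr1:45522007-45522035, plus strand), TXN (chr9:110257070-110257098, plus strand) and TXNRD1 (chr12:104286920-104286948, minus strand) lay on the strand opposite to the gene, at positions -141, -581 and -60. SRXN1, HMOX1, FTH1, FTL and TXNIP held no match in this window, and sequence farther away was not searched. For TXNRD1 the window depends on which of its several starts is used. The FTH1 window was placed at the start of FTH1-211, annotated as a retained intron, which held 39.3% of the counts of the gene. Of 21 other listed NRF2 targets that were tested, 11 held a match. A match describes the sequence only, and matches are common among all tested genes, so the count sets the 9 genes little apart. Whether any match acts as an antioxidant response element was not tested.

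**Figure D1:**
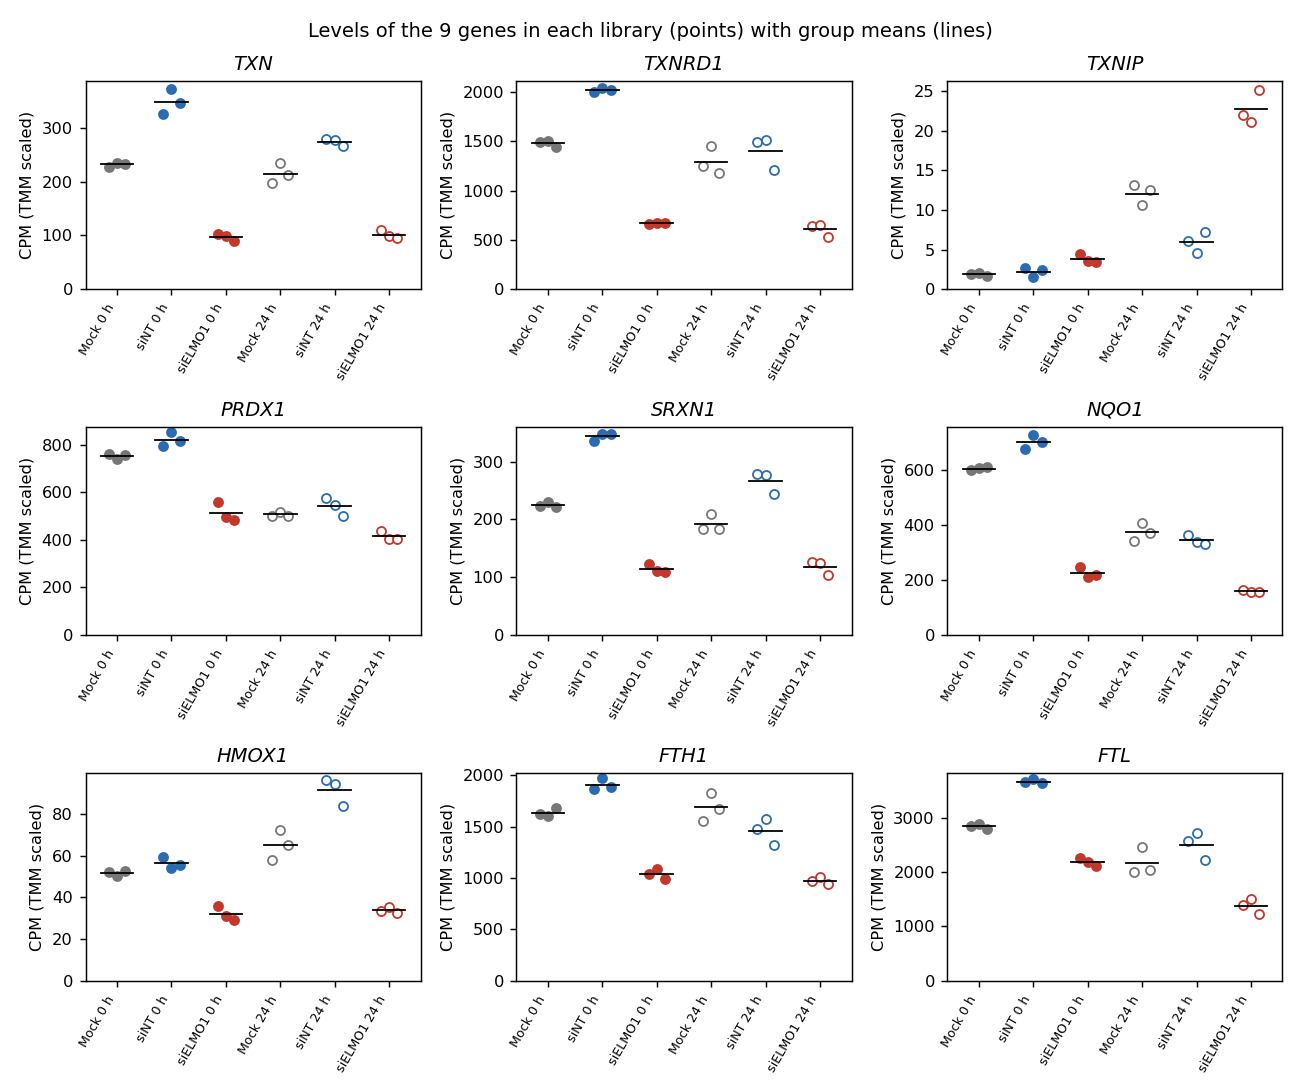
Level of each gene in CPM (linear axes that start at 0) in the 18 libraries, grouped by transfection and time; points are libraries, filled at 0 h and open at 24 h, and lines are means of 3. In 8 panels the siELMO1 points lie below both control groups of the same time, and in the TXNIP panel they lie above them.

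Before poly(I:C), knockdown of ELMO1 went with lower mRNA of the thioredoxin, quinone, heme and ferritin genes and with higher TXNIP. Against Mock 8 of the 9 genes were lower and TXNIP was higher at an adjusted p under 0.05, and 22.4% and 27.9% of all genes tested were called lower and higher. Against siNT the counts were again 8 lower and 1 higher, with 31.3% of all genes called in each direction. The 9 genes had a median of -0.69 on the log2 scale against Mock and of -0.88 against siNT, with medians over all genes tested of 0.041 and 0.00093. More than 2-fold lower were NQO1, TXN and TXNRD1 against Mock (4.5% of all genes), joined by SRXN1 against siNT (6.22% of all genes). The siELMO1 libraries did not overlap the controls in any of the 9 genes, 8 below and 1 above. Of all genes, 25.2% lay below and 30.9% above Mock in this way, and 33.1% and 32.2% below and above siNT. The 2 comparisons share the siELMO1 libraries and are not independent of each other. In these bulk libraries, fewer cells that express a gene and less RNA per cell cannot be told apart.

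Thioredoxin itself, TXN (ENSG00000136810.13, chromosome 9, 110243810 to 110256507), was the gene of the 9 that differed most between siELMO1 and siNT at 0 h. It was at 228, 235 and 233 CPM in Mock, at 326, 373 and 346 CPM in siNT and at 103, 99.2 and 90.2 CPM in siELMO1. The 3 groups did not overlap. TXN fell by 1.25 ± 0.07 on the log2 scale (SE) against Mock (edgeR, adjusted p = 9.4e-11) and by 1.84 ± 0.07 against siNT, which is 3.57-fold (edgeR, adjusted p = 4.9e-13). The siNT cells themselves stood above Mock by 0.59 ± 0.07 (edgeR, adjusted p = 1.6e-06), so that the difference from siNT was larger than that from Mock. Of the counts of TXN, 97.7% ± 0.457 (SD, n = 3) came from transcript TXN-202 in Mock at 0 h.

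Thioredoxin reductase 1, TXNRD1 (ENSG00000198431.18, chromosome 12, 104215779 to 104350307), is the cytosolic selenoenzyme that recycles TXN. It was at 1490.0, 1506 and 1444 CPM in Mock, at 2000.4, 2036 and 2022 CPM in siNT and at 663, 670.0 and 675 CPM in siELMO1 at 0 h. The spread within each group was small beside the distance between groups. The log2 fold change of siELMO1 was -1.14 ± 0.09 against Mock (edgeR, adjusted p = 5.4e-09) and -1.59 ± 0.09 against siNT (edgeR, adjusted p = 3.8e-11). The ratio of TXNRD1 to TXN, computed per length and scaled to equal totals (TPM), was 1.32 ± 0.0145 in Mock, 1.19 ± 0.0781 in siNT and 1.44 ± 0.147 in siELMO1 (SD, n = 3), and the ranges of Mock and siELMO1 overlapped.

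The TXNRD1 isoforms were not assigned in the same way in all libraries, which limits any statement below the gene. Transcript TXNRD1-208 took 42.1% to 61.8% of the counts of the gene in the 12 control libraries. In siELMO1 its share was 57.2%, 44.8% and 0.272% at 0 h and 66.3%, 0.0576% and 0.0187% at 24 h. Where it was near 0, TXNRD1-201 took 51.0%, 35.4% and 68.7%. The siELMO1 libraries thus disagree among themselves on the isoform, while the SD of the gene level was 6.17 CPM at 0 h and 64.7 CPM at 24 h. RPL18AP3, a processed pseudogene within TXNRD1 on the same strand, was at a mean of 110.5 CPM over all libraries.

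PRDX1 (ENSG00000117450.15, chromosome 1, 45510914 to 45542732), a cytosolic peroxiredoxin, changed less than its partners. At 0 h it was at 760.4, 741 and 756 CPM in Mock, at 796, 854 and 815 CPM in siNT and at 559, 495 and 484 CPM in siELMO1. All siELMO1 libraries were below all controls. The log2 fold change was -0.55 ± 0.06 against Mock (edgeR, adjusted p = 3.6e-07) and -0.68 ± 0.06 against siNT (edgeR, adjusted p = 1.3e-08). The gene MMACHC, which overlaps PRDX1 on the other strand, had a mean of 11.4 CPM.

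Sulfiredoxin, SRXN1 (ENSG00000271303.2, chromosome 20, 646615 to 653200), followed TXN closely. It was at 223, 229.5 and 222 CPM in Mock, at 336, 348 and 348 CPM in siNT and at 123, 111 and 109 CPM in siELMO1 at 0 h. SRXN1 was lower in siELMO1 by 1.97-fold against Mock (log2 fold change -0.98 ± 0.08, edgeR, adjusted p = 7.2e-09) and by 3.01-fold against siNT (-1.59 ± 0.08, edgeR, adjusted p = 6.4e-12). As for TXN, siNT was above Mock, here by 0.61 ± 0.07 (edgeR, adjusted p = 2.4e-06).

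TXNIP (ENSG00000265972.6, chromosome 1, 145992435 to 145996579), the inhibitor of thioredoxin, went the other way. At 0 h it was at 1.85, 2.07 and 1.70 CPM in Mock, at 2.67, 1.54 and 2.44 CPM in siNT and at 4.43, 3.51 and 3.41 CPM in siELMO1. Its level was low, with 94 to 326 counts per library at 0 h, and the siELMO1 libraries were above all control libraries. The log2 fold change was 1.02 ± 0.19 against Mock (edgeR, adjusted p = 2.4e-04) and 0.77 ± 0.19 against siNT (edgeR, adjusted p = 0.0018). Mock and siNT overlapped at 0 h (edgeR, adjusted p = 0.3).

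NQO1 (ENSG00000181019.13, chromosome 16, 69706996 to 69726668), the quinone reductase often read as a gauge of NRF2 activity, was at 601, 608 and 612 CPM in Mock and at 679, 730.5 and 703 CPM in siNT at 0 h. In siELMO1 it was at 249, 211 and 219 CPM. It fell by 1.42 ± 0.07 on the log2 scale against Mock (edgeR, adjusted p = 5.3e-12), the largest decrease of the 9 genes in that comparison, and its log2 fold change against siNT was -1.64 ± 0.07 (edgeR, adjusted p = 6.4e-13). The difference between siNT and Mock was smaller, 0.21 ± 0.06 (edgeR, adjusted p = 0.0093), and missed the threshold when any 1 of the 3 Mock libraries of 0 h was left out (lowest log2 fold change 0.17, without replicate 1).

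Heme oxygenase 1, HMOX1 (ENSG00000100292.18, chromosome 22, 35380361 to 35394214), had the lowest level per length after TXNIP. It was at 52.2, 50.4 and 52.8 CPM in Mock, at 59.2, 53.9 and 55.7 CPM in siNT and at 35.8, 31.3 and 29.1 CPM in siELMO1 at 0 h. The siELMO1 libraries were the lowest. Its log2 fold change was -0.69 ± 0.08 against Mock (edgeR, adjusted p = 1.8e-06) and -0.81 ± 0.08 against siNT (edgeR, adjusted p = 1.4e-07).

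The ferritin chains fell by less than 2-fold. FTH1 (ENSG00000167996.16, chromosome 11, 61959718 to 61967634), the heavy chain that oxidizes iron, stood at 1619.6, 1603 and 1684 CPM in Mock, at 1864, 1976 and 1886 CPM in siNT and at 1037, 1087 and 993 CPM in siELMO1 at 0 h. FTL (ENSG00000087086.15, chromosome 19, 48965309 to 48966879), the light chain, was at 2849.7, 2889.9 and 2801 CPM in Mock, at 3660.2, 3709 and 3639 CPM in siNT and at 2264, 2184 and 2105 CPM in siELMO1. For both chains siNT was the highest group and siELMO1 the lowest, with no overlap. The log2 fold changes against siNT were -0.88 ± 0.06 for FTH1 (edgeR, adjusted p = 1.3e-09) and -0.75 ± 0.08 for FTL (edgeR, adjusted p = 2.5e-07). Against Mock they were -0.65 ± 0.06 (edgeR, adjusted p = 1.2e-07) and -0.38 ± 0.08 (edgeR, adjusted p = 6.5e-04).

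Near-identical copies can take reads from the ferritin genes, so their counts were added as a check. The 25 processed pseudogenes named after FTH1 held 0.724% to 2.06% of the summed counts per library, and the 16 named after FTL 0.096% to 0.378%. With them, the log2 ratio of siELMO1 to siNT at 0 h was -0.87 for FTH1 and -0.75 for FTL. BEST1, which overlaps FTH1 on the other strand, had a mean of 40.4 CPM. Ferritin synthesis is also controlled in translation by iron, which mRNA levels do not show.

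**Figure D2:**
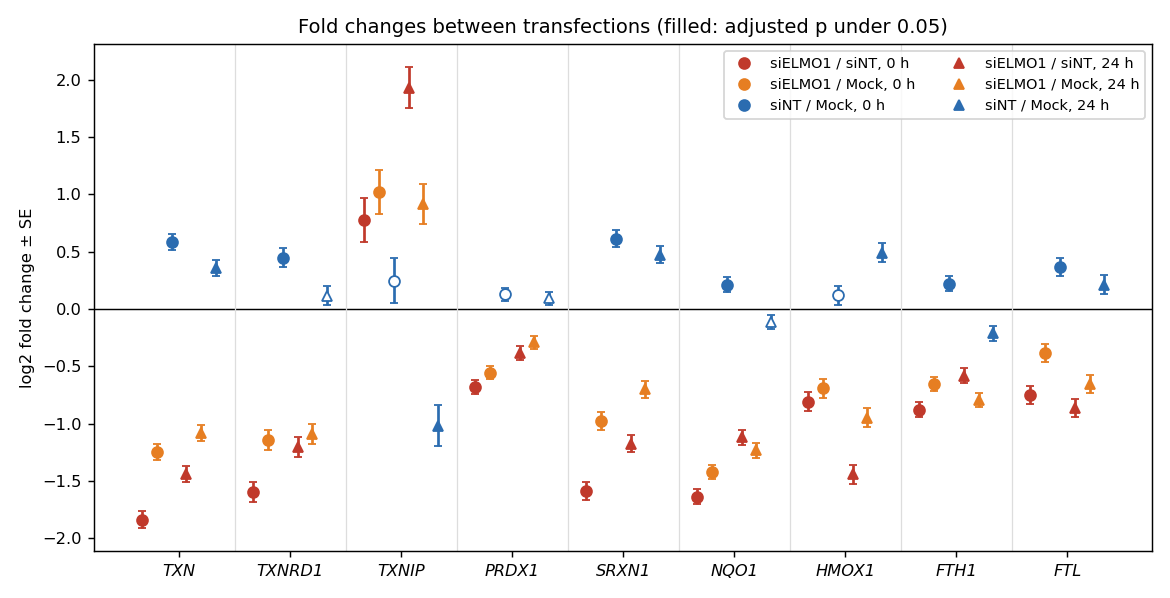
Log2 fold change (y axis) of each gene (x axis) in the 6 comparisons between transfections, with SE as error bars; circles are 0 h, triangles 24 h, and filled symbols passed an adjusted p of 0.05. The red and orange symbols, siELMO1 against siNT and against Mock, lie below 0 for every gene but TXNIP, where they reach 1.93.

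The transfection with non-targeting siRNA also moved several of the genes, at 0 h upward. Of the 9, 6 were higher in siNT than in Mock (FTH1, FTL, NQO1, SRXN1, TXN and TXNRD1), and 27.6% of all genes tested were called higher. The median of the 9 genes was 0.25. Besides TXN and SRXN1, given above, TXNRD1 was higher by 0.45 ± 0.09 (edgeR, adjusted p = 2.9e-04) and FTL by 0.37 ± 0.08 (edgeR, adjusted p = 9.3e-04). FTH1, at 0.22 ± 0.06 (edgeR, adjusted p = 0.0065), missed the threshold without Mock replicate 1 or 2 of 0 h (0.18 and 0.17). For HMOX1 and PRDX1 the values were 0.12 ± 0.08 (edgeR, adjusted p = 0.23) and 0.13 ± 0.06 (edgeR, adjusted p = 0.077), and for TXNIP 0.25 ± 0.19 (edgeR, adjusted p = 0.3). Though not called, HMOX1 and PRDX1 were higher in every siNT library than in every Mock library, while TXNIP overlapped.

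After 24 h of poly(I:C) the same split between the 8 genes and TXNIP was measured. Under this treatment the study reports massive cell death in siNT, much less in Mock, and protection from it in siELMO1. The part of cell death in the levels at 24 h was not tested. Against Mock 8 genes were lower (22% of all genes tested) and TXNIP was higher (21.6% of all genes tested), and against siNT the counts were 8 lower (26.5%) and 1 higher (26%). The 9 genes had a median of -0.79 on the log2 scale against Mock and of -1.12 against siNT. No siELMO1 library of 24 h overlapped a control library in any of the 9 genes, whereas 27.7% (lower) and 26.1% (higher) of all genes did not overlap Mock and 30.3% and 29.1% did not overlap siNT. More than 2-fold lower than siNT were HMOX1, NQO1, SRXN1, TXN and TXNRD1, against 2.48% of all genes.

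In the thioredoxin system at 24 h, TXN was at 197, 234 and 212 CPM in Mock, at 279, 278 and 266 CPM in siNT and at 109.6, 99.2 and 94.7 CPM in siELMO1. TXNRD1 was at 1248, 1452 and 1179 CPM, at 1493, 1511 and 1203 CPM and at 643, 647 and 533 CPM in the same order. No siELMO1 library reached a control library, whereas Mock and siNT overlapped for TXNRD1 (edgeR, adjusted p = 0.27). SRXN1 was at 184, 209 and 184 CPM in Mock, at 279, 278 and 245 CPM in siNT and at 127, 125 and 103 CPM in siELMO1. Against siNT, the log2 fold changes of siELMO1 were -1.44 ± 0.07 for TXN (edgeR, adjusted p = 5.8e-11), -1.21 ± 0.09 for TXNRD1 (edgeR, adjusted p = 4.7e-09) and -1.17 ± 0.08 for SRXN1 (edgeR, adjusted p = 1.3e-09). PRDX1 differed least, by -0.38 ± 0.06 against siNT (edgeR, adjusted p = 2.8e-05) and by -0.29 ± 0.06 against Mock (edgeR, adjusted p = 5.4e-04).

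TXNIP separated all 3 transfections at 24 h. It was at 13.1, 10.6 and 12.5 CPM in Mock, at 6.07, 4.57 and 7.25 CPM in siNT and at 22.0, 21.1 and 25.1 CPM in siELMO1. The groups did not overlap, with siNT lowest and siELMO1 highest. The log2 fold change of siELMO1 was 0.91 ± 0.17 against Mock (edgeR, adjusted p = 3.4e-04) and 1.93 ± 0.18 against siNT, or 3.81-fold (edgeR, adjusted p = 1.1e-07). TXNIP was lower in siNT than in Mock by 2.02-fold (-1.02 ± 0.18, edgeR, adjusted p = 1.4e-04).

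HMOX1 also separated the transfections at 24 h, in the reverse order. It was at 57.9, 72.2 and 64.9 CPM in Mock, at 96.5, 94.2 and 83.9 CPM in siNT and at 33.4, 35.4 and 32.4 CPM in siELMO1. The siNT libraries were highest and the siELMO1 libraries lowest. The log2 fold change of siELMO1 was -0.95 ± 0.08 against Mock (edgeR, adjusted p = 6.9e-08) and -1.44 ± 0.08 against siNT (edgeR, adjusted p = 3.2e-10), and that of siNT against Mock was 0.49 ± 0.08 (edgeR, adjusted p = 7.2e-05).

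NQO1 at 24 h was at 343, 407 and 372 CPM in Mock, at 365, 340.1 and 331 CPM in siNT and at 163, 158 and 157 CPM in siELMO1. The control groups overlapped (edgeR, adjusted p = 0.15) and siELMO1 was below both, by 1.23 ± 0.06 and 1.12 ± 0.06 on the log2 scale (edgeR, adjusted p = 2.5e-10 and 3.4e-10). FTH1 was at 1561, 1832 and 1671 CPM in Mock, at 1475, 1576 and 1321 CPM in siNT and at 973, 1006 and 947 CPM in siELMO1. FTL was at 2002, 2459.8 and 2031 CPM, at 2577, 2717 and 2232 CPM and at 1399, 1496 and 1237 CPM. For both chains the controls overlapped and siELMO1 was lower, by -0.58 ± 0.06 for FTH1 (edgeR, adjusted p = 6.6e-07) and -0.87 ± 0.08 for FTL (edgeR, adjusted p = 1.1e-07) against siNT.

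Between siNT and Mock at 24 h, 4 of the 9 genes were higher (FTL, HMOX1, SRXN1 and TXN), with 25.2% of all genes called higher, and FTH1 and TXNIP were lower, with 24.9% called lower. The ferritin calls were the weakest. FTL, at 0.21 ± 0.08 (edgeR, adjusted p = 0.034), missed the threshold when Mock replicate 1 or 3 or siNT replicate 1 or 2 of 24 h was left out (lowest 0.15). FTH1, at -0.21 ± 0.06 (edgeR, adjusted p = 0.0094), missed it without Mock replicate 2 or siNT replicate 3 (-0.15 each).

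Poly(I:C) raised TXNIP in all 3 transfections and lowered PRDX1, NQO1 and FTL in all 3. In Mock 2 genes rose (30.7% of all genes tested) and 4 fell (29.6%). In siNT 2 rose (28.6%) and 7 fell (25.2%). In siELMO1 TXNIP alone rose (28%) and FTL, NQO1 and PRDX1 fell (26.9%). The median log2 fold change of the 9 genes was -0.19, -0.39 and -0.09 in Mock, siNT and siELMO1. The time in culture also differed between 0 h and 24 h and cannot be told apart from poly(I:C).

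TXNIP had the largest response. It rose 6.44-fold in Mock (log2 fold change 2.69 ± 0.19, edgeR, adjusted p = 1.3e-09), 2.68-fold in siNT (1.42 ± 0.19, edgeR, adjusted p = 5.2e-06) and 5.98-fold in siELMO1 (2.58 ± 0.19, edgeR, adjusted p = 2.2e-09). The response in siNT was smaller than that in Mock, by -1.26 ± 0.26 (edgeR interaction, adjusted p = 0.0013), and smaller than that in siELMO1, with a difference of 1.16 ± 0.26 for siELMO1 over siNT (edgeR interaction, adjusted p = 0.0021). Between siELMO1 and Mock the difference was -0.11 ± 0.26 (edgeR interaction, adjusted p = 0.8).

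NQO1 fell most in siNT, 2.04-fold (log2 fold change -1.03 ± 0.06, edgeR, adjusted p = 4.3e-10), against -0.70 ± 0.06 in Mock (edgeR, adjusted p = 3.8e-08) and -0.51 ± 0.06 in siELMO1 (edgeR, adjusted p = 2.8e-06). PRDX1 fell by 0.57 ± 0.06 in Mock, 0.60 ± 0.06 in siNT and 0.31 ± 0.06 in siELMO1 (edgeR, adjusted p = 1.6e-07, 1.2e-07 and 2.4e-04). FTL fell by 0.40 ± 0.08, 0.55 ± 0.08 and 0.67 ± 0.08 (edgeR, adjusted p = 3.6e-04, 1.6e-05 and 1.6e-06). All 3 genes thus passed the test in every transfection.

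TXN, TXNRD1 and FTH1 were called in siNT, where they fell by 0.34 ± 0.07, 0.53 ± 0.09 and 0.39 ± 0.06 (edgeR, adjusted p = 4.1e-04, 5.6e-05 and 4.8e-05); the tests of the difference are given below. TXNRD1 in Mock stood at -0.19 ± 0.09 (edgeR, adjusted p = 0.059) and passed the threshold with limma-voom (-0.20) and DESeq2 (-0.21). TXN in Mock stood at -0.11 ± 0.07 (edgeR, adjusted p = 0.16) and became a call without Mock replicate 2 of 24 h (-0.18). Both were called in Mock with library totals (TXNRD1 at -0.32 and TXN at -0.24) and with upper-quartile factors (-0.27 and -0.19), and with library totals FTH1 was called in siELMO1 (-0.15). In siELMO1 the value of TXN was 0.05 ± 0.07 (edgeR, adjusted p = 0.55). SRXN1 fell in Mock (-0.23 ± 0.07, edgeR, adjusted p = 0.015) and in siNT (-0.36 ± 0.07, edgeR, adjusted p = 4.9e-04), and was at 0.05 ± 0.07 in siELMO1 (edgeR, adjusted p = 0.59). The call of SRXN1 in Mock was lost without Mock replicate 3 of 24 h (-0.19). HMOX1 rose by 0.33 ± 0.08 in Mock (edgeR, adjusted p = 0.002) and 0.70 ± 0.08 in siNT (edgeR, adjusted p = 1.1e-06), and stood at 0.07 ± 0.08 in siELMO1 (edgeR, adjusted p = 0.48).

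**Figure D3:**
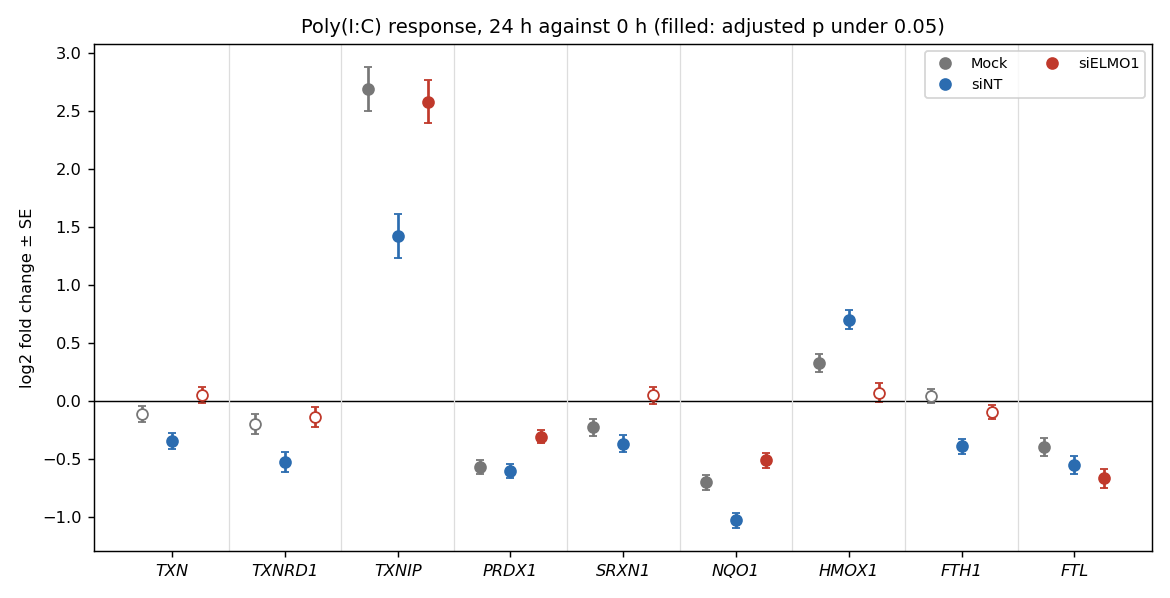
Log2 fold change from 0 h to 24 h of poly(I:C) (y axis) of each gene (x axis) in Mock (grey), siNT (blue) and siELMO1 (red), with SE as error bars and filled symbols for an adjusted p under 0.05. TXNIP is the gene far above 0, at 2.69, 1.42 and 2.58, and the blue point is the lowest of the 3 for TXN, TXNRD1, TXNIP, PRDX1, SRXN1, NQO1 and FTH1.

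The differences between the poly(I:C) responses were tested in the same model. Between siELMO1 and siNT 8 of the 9 genes differed: 7 had the higher log2 fold change in siELMO1 (16.7% of all genes) and HMOX1 the lower (17.8% of all genes). Among the 7, TXNIP rose more in siELMO1, while NQO1 and PRDX1 fell less there than in siNT. TXN, TXNRD1, SRXN1 and FTH1 fell in siNT and were not called in siELMO1. Though not called, TXNRD1 in siELMO1 stood at -0.14 ± 0.09 (edgeR, adjusted p = 0.18), and every library of 24 h was below every library of 0 h. The differences were 0.40 ± 0.10 for TXN (edgeR interaction, adjusted p = 0.0043), 0.52 ± 0.09 for NQO1 (edgeR interaction, adjusted p = 2.4e-04) and 0.42 ± 0.11 for SRXN1 (edgeR interaction, adjusted p = 0.0054). That of HMOX1 was -0.63 ± 0.12 (edgeR interaction, adjusted p = 4.1e-04) and that of FTL, which was not called, -0.12 ± 0.11 (edgeR interaction, adjusted p = 0.46). Because siNT started higher than siELMO1 at 0 h for 8 of the genes, these values describe unequal change between the times and not equal levels at 24 h.

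Between siNT and Mock 5 genes differed. The log2 fold change with poly(I:C) was lower in siNT for TXNRD1, TXNIP, NQO1 and FTH1 (16% of all genes), and higher for HMOX1 (14.9%). For TXNIP this was a smaller rise. The differences were -0.33 ± 0.09 for NQO1 (edgeR interaction, adjusted p = 0.0099), -0.43 ± 0.09 for FTH1 (edgeR interaction, adjusted p = 0.0011) and 0.37 ± 0.11 for HMOX1 (edgeR interaction, adjusted p = 0.019). The difference for TXN, -0.23 ± 0.10, was not called (edgeR interaction, adjusted p = 0.085). TXNRD1 was just within the threshold, at -0.33 ± 0.12 (edgeR interaction, adjusted p = 0.047), and missed it when any 1 of 9 of the 12 libraries was left out (-0.34 to -0.23). Between siELMO1 and Mock only PRDX1 was called, at 0.26 ± 0.08 (edgeR interaction, adjusted p = 0.023; 13.8% of all genes called higher), and this call was lost without siELMO1 replicate 2 or 3 of 0 h or replicate 1 of 24 h (0.24, 0.22 and 0.22).

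The order of the levels per length was the same in all 6 conditions, from FTL over FTH1, PRDX1, TXNRD1, TXN, NQO1, SRXN1 and HMOX1 to TXNIP. In Mock at 0 h the mean level was 7993 ± 178 TPM for FTL, 4924 ± 107 TPM for FTH1, 1941 ± 13.4 TPM for PRDX1 and 1024 ± 21.4 TPM for TXNRD1 (SD, n = 3). TXN was at 773 ± 19.6 TPM, NQO1 at 603 ± 7.11 TPM, SRXN1 at 218 ± 5.63 TPM, HMOX1 at 83.1 ± 0.705 TPM and TXNIP at 1.62 ± 0.208 TPM. Neighbours in this order did not overlap in any condition except TXNRD1 and TXN in siNT at 24 h, which were at 897 ± 95.5 and 849.8 ± 17.2 TPM.

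The balance of thioredoxin to its inhibitor, given as the ratio of TXN to TXNIP in TPM, covered a wide range. At 0 h it was 481 ± 57.7 in Mock, 642 ± 236 in siNT and 99.99 ± 8.80 in siELMO1 (SD, n = 3). At 24 h it was 70.5 ± 14.2 in Mock, 185 ± 49.5 in siNT and 17.6 ± 2.45 in siELMO1. Mock and siNT overlapped at 0 h, and the siELMO1 libraries were below both controls at each time, with a lowest value of 14.8. The ratio is a description of mRNA and follows from the values of the 2 genes above.

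**Figure D4:**
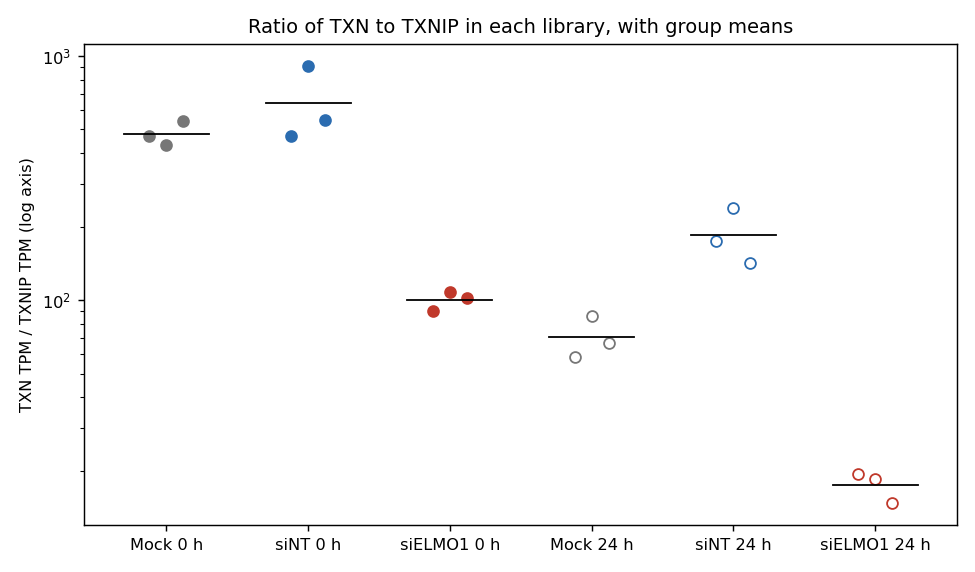
Ratio of TXN to TXNIP in TPM (log axis) in each library by condition, with filled points at 0 h, open points at 24 h and lines for means of 3. The siELMO1 points are the lowest at each time, and each transfection is lower at 24 h than at 0 h.

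The ratio of ferritin heavy to light chain mRNA was 0.616 ± 0.0244 in Mock, 0.537 ± 0.0115 in siNT and 0.491 ± 0.0298 in siELMO1 at 0 h (TPM, SD, n = 3). At 24 h it was 0.835 ± 0.048 in Mock, 0.618 ± 0.0135 in siNT and 0.716 ± 0.051 in siELMO1. The mean ratio was higher at 24 h than at 0 h in each transfection. In TPM, Mock was above siELMO1 and siELMO1 above siNT at 24 h with no overlap. TPM depends on how FTH1 counts are divided among transcripts of unequal length. With the CPM of the genes instead, the ratios of Mock and siELMO1 overlapped at 24 h, and those of siNT lay below both. The FTH1 counts were divided among several transcripts. FTH1-208, annotated as a target of nonsense-mediated decay, took 50.7%, 43.1% and 56.3% in siELMO1 at 24 h, against 23.5%, 18.0% and 20.5% in siNT and 25.2%, 22.5% and 18.2% in Mock. The share of FTH1-211, annotated as a retained intron, was 20.3%, 31.4% and 23.4% in siELMO1 at 24 h. In siNT it was 44.6%, 51.0% and 47.3%, and in Mock 45.3%, 47.8% and 50.8%. The coding FTH1-201 had a mean of 12.1% in siELMO1, 12.3% in siNT and 10.1% in Mock at 24 h. For FTH1-204, also coding, they were 6.21%, 9.69% and 9.42%, and for FTH1-202 4.50%, 5.86% and 6.39%, in that order. At 0 h the shares of FTH1-208 overlapped between siELMO1 (33.4% to 49.3%) and siNT (25.1% to 47.6%), and those of Mock (22.7% to 25.0%) lay below siELMO1. StringTie estimates this division, and the shares were not tested.

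The other genes of these pathways were taken from lists of known pathway members. The lists were chosen with earlier results of these data known, so their counts are not independent evidence. Of 21 tested genes among 23 other listed NRF2 targets, 18 were lower and 1 higher in siELMO1 than in siNT at 0 h (median of -0.67 on the log2 scale), where 31.3% of all genes tested were called in each direction. Against Mock 11 were lower and 2 higher (median -0.34; 22.4% and 27.9% of all genes), and in siNT against Mock 13 were higher and 2 lower (27.6% and 24% of all genes). At 24 h 14 were lower and 2 higher against each control (22% and 21.6% of all genes for Mock, 26.5% and 26% for siNT). Named by the smallest adjusted p against siNT at 0 h, SLC7A11, the cystine importer, changed by -3.01 ± 0.11 (edgeR, adjusted p = 2.3e-13), GCLM, a subunit of the first enzyme of glutathione synthesis, by -1.38 ± 0.05 (edgeR, adjusted p = 6.1e-13) and GSR, glutathione reductase, by -1.50 ± 0.06 (edgeR, adjusted p = 6.8e-13). Poly(I:C) in siNT raised 2 and lowered 10 of the list (28.6% and 25.2% of all genes). Among the lower genes were ABCC1 (-0.76 ± 0.04) and TKT (-0.98 ± 0.07; edgeR, adjusted p = 9.7e-11 and 1.3e-09).

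NRF2 and its regulators, taken as a list, showed no common direction in siELMO1. Of 9 genes, 3 were higher and 4 lower than in siNT at 0 h, with a median of 0.06, near the 31.3% of all genes called in each direction. Against Mock at 0 h 3 were higher and 3 lower (27.9% and 22.4% of all genes). At 24 h 2 were higher and 3 lower against each control (21.6% and 22% of all genes for Mock, 26% and 26.5% for siNT). SQSTM1, which binds KEAP1 and is also an NRF2 target, fell from 420.4 ± 8.39 CPM in siNT to 143 ± 8.22 CPM in siELMO1 (-1.55 ± 0.05, edgeR, adjusted p = 3.9e-14). MAFF, a small MAF partner, rose by 1.29 ± 0.06 (edgeR, adjusted p = 1.1e-11), and RBX1, part of the KEAP1 ligase, fell by 0.73 ± 0.08 (edgeR, adjusted p = 4.4e-07). With poly(I:C) in siNT 4 rose and 2 fell (28.6% and 25.2% of all genes), with MAFF at 1.30 ± 0.06, SQSTM1 at 0.65 ± 0.05 and CUL3 at -0.50 ± 0.06 (edgeR, adjusted p = 1.8e-11, 2.4e-09 and 4.0e-06).

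The rest of the thioredoxin and glutaredoxin system was mixed as well. Of 20 tested genes, 6 were higher and 8 lower in siELMO1 than in siNT at 0 h, with a median of -0.03 on the log2 scale; of all genes 31.3% were called in each direction. PRDX4, the peroxiredoxin of the endoplasmic reticulum, was higher by 1.25 ± 0.07 (edgeR, adjusted p = 2.1e-11), while the glutaredoxins GLRX5 and GLRX were lower, by -1.08 ± 0.07 and -1.13 ± 0.07 (edgeR, adjusted p = 2.3e-10 and 3.7e-10). With poly(I:C) in siNT 4 rose and 9 fell (28.6% and 25.2% of all genes). GLRX rose by 1.21 ± 0.07, GLRX5 fell by 0.73 ± 0.07 and mitochondrial thioredoxin reductase TXNRD2 fell by 1.11 ± 0.11 (edgeR, adjusted p = 1.5e-10, 6.8e-08 and 1.4e-07).

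Of 22 genes of heme and iron handling, 5 were higher and 11 lower in siELMO1 than in siNT at 0 h, with a median of -0.22 (31.3% of all genes in each direction). Those with the smallest adjusted p were the iron importer SLC11A2 (-1.19 ± 0.06), ALAS1, the rate-limiting enzyme of heme synthesis (-0.82 ± 0.04), and the heme exporter FLVCR1 (-1.52 ± 0.09), with adjusted p = 7.1e-12, 2.8e-11 and 6.4e-11 (edgeR). With poly(I:C) in siNT 4 rose and 10 fell (28.6% and 25.2% of all genes), with ACO1, which binds iron-responsive elements when iron is scarce, at -1.03 ± 0.05, the heme transporter SLC48A1 at 0.59 ± 0.06 and ALAS1 at 0.42 ± 0.04 (edgeR, adjusted p = 4.4e-11, 2.2e-07 and 2.6e-07).

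Of the factors known to drive TXNIP, MLXIP was higher in siELMO1 than in siNT at 0 h by 1.10 ± 0.05 (edgeR, adjusted p = 3.5e-12), at 200.2 ± 10.0 CPM against 93.6 ± 2.92 CPM, and MLX was lower by -0.45 ± 0.06 (edgeR, adjusted p = 4.8e-06). With poly(I:C) in siNT MLX rose by 0.21 ± 0.06 (edgeR, adjusted p = 0.0064), and MLXIP stood at -0.04 ± 0.05 (edgeR, adjusted p = 0.52). ARRDC4, the paralog of TXNIP, and MLXIPL did not pass the filter on low counts.

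**Figure D5:**
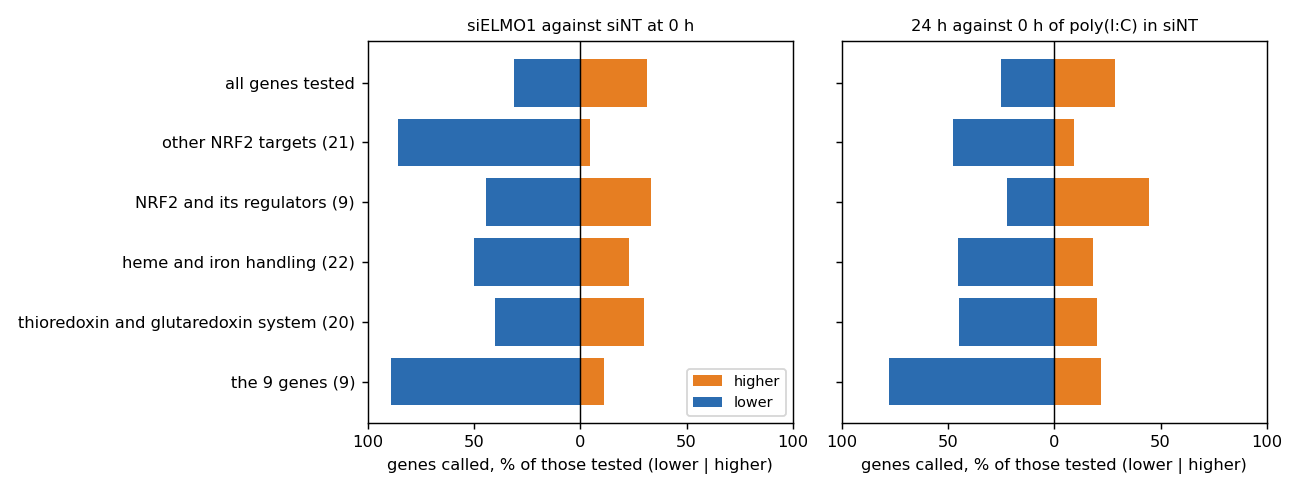
Share of the tested genes of each list (number tested in parentheses) that were called lower (blue, left) or higher (orange, right) at an adjusted p under 0.05, in siELMO1 against siNT at 0 h and with poly(I:C) in siNT. The 9 genes and the other NRF2 targets are mostly lower in the left panel, with 8 of 9 and 18 of 21, and the top bar gives all genes tested.

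The genes whose level over the 18 libraries was most like that of a member were named by Pearson's r of log2 CPM, among 9544 genes. Since the libraries fall into 6 conditions, r describes mostly the condition means. For TXN they were RPS16 (0.991), TALDO1 (0.984) and DCUN1D5 (0.978), and for SRXN1 TALDO1 (0.991), GSR (0.985) and RPS16 (0.981). For TXNRD1 they were CTBP2, GLUD1 and MTMR4 (0.973 to 0.977), for PRDX1 GLO1, CCT4 and VBP1 (0.976 to 0.981) and for NQO1 EMP1, FGD4 and ABHD10 (0.967 to 0.976). TXNIP was most like PIEZO1 (0.989), PXK (0.984) and BACH1 (0.981). The closest to HMOX1 were TMEM158, MLX and SPRYD3 (0.948 to 0.957), to FTH1 MTMR4, TSEN15 and ECSIT (0.962 to 0.970) and to FTL RPL8, GAPDH and PCBP1 (0.968 to 0.973). Among the 9 genes, TXN and SRXN1 were the most alike (0.986), TXN and TXNRD1 followed closely (0.977), and HMOX1 and PRDX1 were little alike (0.320).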

How the data were processed

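RNA-seq libraries of EA.hy926 cells were analysed, 3 in each of 6 conditions, grouped by GEO's labels and called biological replicates in the study. STAR alignments to GRCh38 were quantified by the authors with StringTie, and the deposited matrices hold estimated counts for genes and for transcripts, without normalization; the read length used to turn coverage into counts is not given in the sources used here, so 1 estimated count need not be 1 sequenced fragment, and counts and the limit of 3 counts below are on the scale of these estimates. Counts were scaled with TMM factors (0.958 to 1.06) and given as CPM. For levels between genes, transcript counts were divided by GENCODE v44 transcript length and scaled to TPM.

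Genes that totalled at least 100 counts and reached 1 CPM in some library were tested with edgeR 4.0.16 (R 4.3.3) by the quasi-likelihood test, two-sided, in 1 model of all 18 libraries with Benjamini-Hochberg adjustment over 15167 genes. Biological variation (BCV) came to 12.2%, and genes were called at an adjusted p under 0.05. The SE of a log2 fold change was worked back from the test, as its absolute value divided by the square root of the quasi-likelihood F. The 12 comparisons share libraries. Libraries held 40374756 to 73850946 counts, and each of the 9 genes had at least 94 counts in every library; the limit behind a count of 0 was set at 3 counts, which covers counting error only. Pseudogenes and overlapping genes were taken from GENCODE v44, and promoter windows from the GRCh38 sequence.

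Genes named were the 9 genes, ELMO1, in each list the 3 with the smallest adjusted p in siELMO1 against siNT at 0 h and in the poly(I:C) response of siNT, and for each of the 9 the 3 most correlated genes of at least 10 CPM. The values of 1 gene under this rule are not reported here. The members and lists were chosen with earlier results of these data known, so they are not independent evidence. Deviations from the condition means of same-numbered libraries correlated over 0.1 in all 3 pairs only for Mock and siNT at 24 h (0.203 to 0.343). Differently numbered libraries were not compared, so these values cannot decide whether the numbers pair libraries. Alternatives were limma-voom (limma 3.58.1), DESeq2 1.42.0, library totals, upper-quartile factors, other filters, only the groups compared, the replicate number as a block, no mitochondrially encoded genes and each library left out. The fit with a block of only the groups compared was added after seeing the data. Marker lists of leukocytes (1 of 5 tested, CD68) and of fibroblasts and mural cells (2 of 6 tested) were also read; 4 of 9 lung epithelial markers were tested.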

Additional observations from a re-analysis of the deposited data

Results flagged for a closer look

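The difference between poly(I:C) responses of 2 transfections passed an adjusted p of 0.05 (edgeR interaction) in 14 cases among the 9 genes. Between siELMO1 and siNT the log2 differences were 0.40 for TXN, 0.39 for TXNRD1, 1.16 for TXNIP, 0.30 for PRDX1, 0.42 for SRXN1, 0.52 for NQO1, -0.63 for HMOX1 and 0.30 for FTH1. Between siNT and Mock they were -0.33 for TXNRD1, -1.26 for TXNIP, -0.33 for NQO1, 0.37 for HMOX1 and -0.43 for FTH1. Between siELMO1 and Mock the difference was 0.26 for PRDX1. TXNRD1 between siELMO1 and siNT lost the threshold without siELMO1 replicate 1 or 2 of 24 h (0.34 each). HMOX1 between siNT and Mock lost it without siNT replicate 2 of 0 h or replicate 1 of 24 h (0.34 and 0.33). TXNRD1 between siNT and Mock lost it without any 1 of 9 of the 12 libraries of these groups.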

How the results depend on the processing

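Of 1080 fold changes of the 9 genes under other tests, scalings, filters and fits, 1045 kept their direction and side of the threshold. The 7 that turned sign had not been called, as held for the 9 of 810 that turned with a library left out. Calls between siELMO1 and either control held under every alternative, left-out libraries included. The number of genes that differed in response between siELMO1 and Mock (1) was 2 with library totals, without mitochondrially encoded genes and with DESeq2, 3 with the replicate block, and 0 to 3 with a library left out. Between siNT and Mock it was 3 rather than 5 with library totals, and 3 at the lowest with a library left out. By CPM per kilobase TXN ranked 4 and TXNRD1 5 in siNT at 24 h. With library totals, which shift the median gene by -0.11 in the response of Mock, FTH1 in Mock was at -0.0761, TXN and SRXN1 in siELMO1 at -0.0102 and -0.0128, and PRDX1 between siNT and Mock at 0.0501; upper-quartile factors gave FTH1 -0.0250, TXN -0.0061 and SRXN1 -0.0083. With a library left out the response of FTH1 in Mock ran from -0.0171 to 0.0665, of TXN in siELMO1 from -0.0079 to 0.10, of SRXN1 from -0.00038 to 0.14, and the difference for PRDX1 (siNT and Mock) from -0.0804 to 0.0188, for TXNIP (siELMO1 and Mock) from -0.19 to 0.0282 and for TXNRD1 from -0.0073 to 0.15. The cause was not tested. Between siNT and Mock at 24 h, the conditions whose same-numbered libraries all correlated over 0.1, the replicate block changed no call of the 9 genes. TXNIP at 0 h rests on the fewest counts.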
